A study of Caenorhabditis elegans with 2 samples.

Results

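The 10 genes described here control translation in the germ line of the nematode Caenorhabditis elegans or, in one case, are controlled by it, and they were examined for binding sites of the protein encoded by F33H1.4. They are gld-1, gld-2, gld-3, nos-2, nos-3, daz-1, cpb-1, cpb-3, glp-1 and lin-41, 10 of the 19973 protein-coding genes on the nuclear chromosomes in the Ensembl annotation of WBcel235. They were chosen by name, with earlier results of these data known. The first 8 listed and lin-41 encode RNA-binding proteins, their partners or a poly(A) polymerase, whereas glp-1 encodes a Notch receptor whose own messenger RNA (mRNA) is translationally controlled. For each gene, every peak summit between 1000 bp upstream of the 5' end and the 3' end was taken, and 9 of the 10 genes had one. The data came from chromatin immunoprecipitation followed by sequencing (ChIP-seq), which maps the DNA that a protein sits on. All animals were of strain RW12303, in which CRISPR had been used to insert TY1::EGFP::3xFLAG into F33H1.4 on chromosome II (allele st12303), and the fusion protein was precipitated with an antibody to green fluorescent protein. Synchronised by bleaching and starvation at the first larval stage, they were collected whole as young adults at 62.5 hours, with sex not recorded, in 1 group of 2 biological replicates. There was no second genotype, stage or treatment. A control library was not analysed here, and read depth is unknown from peak lists. In whole animals, binding in more cells and stronger binding per cell cannot be told apart.

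In the adult germ line, stem cells are kept dividing by Notch signalling through GLP-1, and cells that leave the niche enter meiosis and then become sperm or oocytes. Many of these decisions are made on mRNAs that are already present, by proteins that bind their 3' untranslated regions (UTRs) and block or permit translation, or that lengthen their poly(A) tails. GLD-1 and the Nanos proteins act mostly as repressors, while the poly(A) polymerase GLD-2 promotes translation together with GLD-3. The transcription of the genes that encode these regulators is a separate step, and a ChIP-seq summit near a gene reports protein on its DNA and not the gene's expression.

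The DNA under the summits of 5 of the genes is shown first, because the short words discussed with the results can be read in it directly. The runs are the plus strand of the RefSeq genome of WBcel235, the same build as the ce11 of the peak lists. Each starts 100 bp before the summit and ends 100 bp after it or at the 5' end of the gene, whichever comes first. The capitals mark GCGC and TACGGTA, 2 words that were picked out after the sequences had been read. They cover chrII:7132269-7132469, chrII:7065507-7065617, chrII:9746162-9746315, chrII:5455984-5456184 and chrIII:9091491-9091691, in the order printed. No exon of another gene falls in any of them.
gld-3: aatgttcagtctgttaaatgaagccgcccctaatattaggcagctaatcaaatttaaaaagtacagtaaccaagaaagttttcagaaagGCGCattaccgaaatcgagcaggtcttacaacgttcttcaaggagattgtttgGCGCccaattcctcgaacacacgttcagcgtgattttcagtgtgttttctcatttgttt
nos-2: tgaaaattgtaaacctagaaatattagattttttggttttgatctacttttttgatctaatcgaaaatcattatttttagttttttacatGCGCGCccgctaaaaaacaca
nos-3: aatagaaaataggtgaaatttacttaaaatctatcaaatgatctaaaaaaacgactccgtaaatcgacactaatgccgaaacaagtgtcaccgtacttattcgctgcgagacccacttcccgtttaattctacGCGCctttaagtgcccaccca
daz-1: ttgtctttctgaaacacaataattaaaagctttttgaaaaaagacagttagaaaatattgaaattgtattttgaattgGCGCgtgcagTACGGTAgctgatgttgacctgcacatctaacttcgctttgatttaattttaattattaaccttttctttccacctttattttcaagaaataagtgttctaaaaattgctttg
glp-1: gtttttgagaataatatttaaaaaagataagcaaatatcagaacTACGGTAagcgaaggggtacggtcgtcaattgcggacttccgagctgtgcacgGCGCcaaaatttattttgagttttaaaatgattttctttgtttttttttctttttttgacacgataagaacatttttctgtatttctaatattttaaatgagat
In the nos-2 run the capitals hold 2 overlapping copies of GCGC, and in the daz-1 and glp-1 runs both words are present. The gld-3 run holds GCGC at 2 places and the nos-3 run at 1.

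Peaks were read from the lists that the authors had thresholded by the irreproducible discovery rate, a measure of how well a peak recurs. Replicate 1 had 2219 peaks and replicate 2 had 2733, while the series list, derived from both, had 3250. The authors' conservative version of the series list held 3165. Longer lists without a threshold held 51479 entries for the series, 33529 for replicate 1 and 30974 for replicate 2. Signal is the authors' value for each peak, and its scale between lists is not stated, so peaks were ranked within each list from the strongest, at rank 1. A percentile is the share of peaks in a list with a signal at or below that of the peak named. The score is another of the authors' values, 1000 at most and at least 830 in every thresholded list.

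Of the 10 genes, 9 had a summit in the series list, all but cpb-1. Over all protein-coding genes the share with a summit in the same kind of window was 14.8%. For a promoter window, from 1000 bp upstream to 200 bp downstream of any 5' end, the count was again 9 of 10, beside 12.8% of all genes. By place in the genome, 4 of the members lie on chromosome I, 4 on chromosome II and 2 on chromosome III. Promoter summits were found at 21.0% of genes on chromosome I, 13.5% on chromosome II, 22.8% on chromosome III and 18.6% on the 3 together. The median length of the members was 3633 bp against 2027 bp over all protein-coding genes, which widens the first window. Of the members only nos-2, at 1434 bp, was below 2027 bp. The promoter window grows with the number of transcript 5' ends. With the 5' end of the gene record alone, the promoter count was again 9. Replicate 1 had a summit at 7 of the 10 genes, beside 11.2% of all genes, and replicate 2 at 7 of the 10, beside 13.6%. In both replicates a summit was found at 6 of the 10, beside 10.4% of all genes. These 6 were gld-1, gld-2, gld-3, nos-3, daz-1 and lin-41. Because the genes were chosen with results of these lists known, no test was made of these counts.

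**Figure D1:**
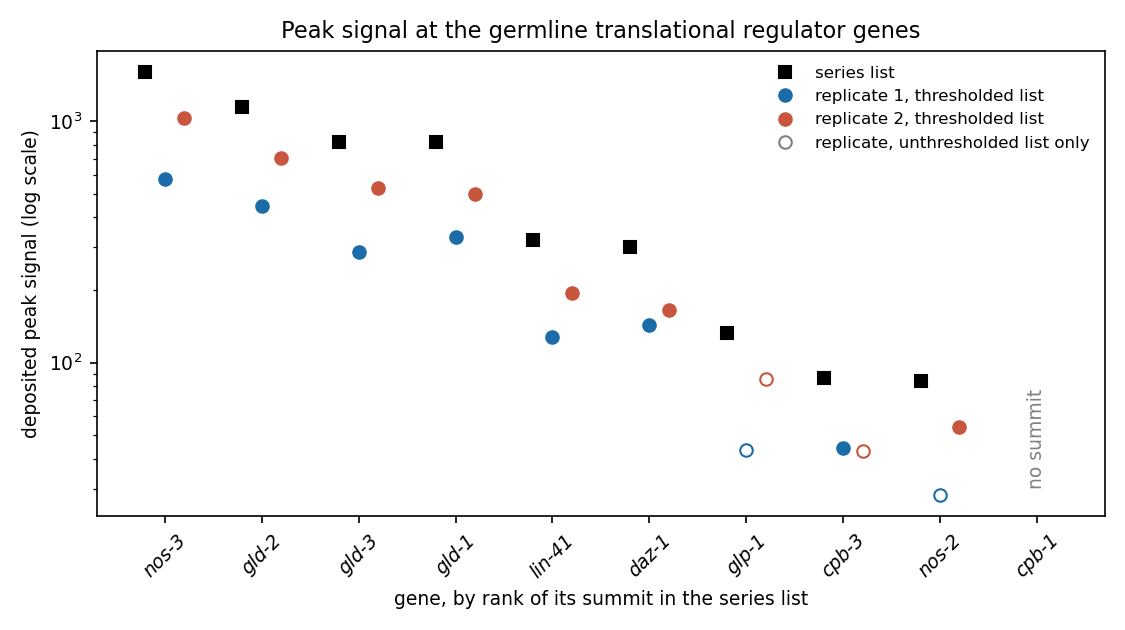
Deposited peak signal (log scale) at the strongest summit of each gene, ordered by rank in the series list, with squares for the series list, filled circles for a replicate's thresholded list and open circles for a replicate's unthresholded list only. From nos-3 at 1600.4 to daz-1 at 302.1 both replicates have filled circles, and cpb-1 has no point.

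The genes of the poly(A) polymerase GLD-2 and its partner GLD-3, a KH-domain protein of the Bicaudal-C family, had a summit near their 5' ends in every thresholded list. At gld-2 (WBGene00001596, chromosome I, 6369748 to 6386194, plus strand) the series peak spanned 6369714 to 6370055, with a signal of 1143, rank 269 of 3250 and percentile 91.8. Its summit at 6369888 was 46 bp upstream of the nearest of 6 transcript 5' ends, inside the 5' UTR of a longer transcript, 140 bp past the start of the gene record. The signal was 445.1 (rank 267) in replicate 1 and 706.2 (rank 263) in replicate 2, with summits 1 bp apart. This was the closest placement between replicates among the members. At gld-3 (WBGene00001597, chromosome II, 7132643 to 7137522, plus strand) the peak spanned 7132218 to 7132528, with a signal of 821.7, rank 424 and its summit 274 bp upstream. The replicate signals at gld-3 were 287.7 (rank 473) and 530.5 (rank 394). The gld-3 summit cannot be given to gld-3 alone, since it also lay 337 bp upstream of T07F8.4, a gene on the opposite strand that points away from gld-3 (7130529 to 7132032).

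GLD-1 is a KH-domain protein of the STAR family that represses many maternal mRNAs and is needed for oocyte development. Its gene followed gld-3 directly in the ranking. At gld-1 (WBGene00001595, chromosome I, 7695681 to 7698222, plus strand) the series peak spanned 7695191 to 7695534, with a signal of 819.6, rank 425 and its summit 313 bp upstream of the 5' end. The replicate signals were 331.8 (rank 412) and 497.3 (rank 422), with summits 17 bp apart. No other protein-coding gene had this summit in its promoter window.

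The Nanos genes nos-3 and nos-2 held the strongest and the weakest summit of the set. NOS-3 works with the Pumilio-family protein FBF in the switch from sperm to oocytes, and NOS-2 is supplied by the mother and acts in the primordial germ cells of the embryo. At nos-3 (WBGene00003785, chromosome II, 9746316 to 9750462, plus strand) the peak spanned 9746082 to 9746463, with a signal of 1600.4, rank 145 and percentile 95.6. Its summit was 54 bp upstream of the nearest of 5 transcript 5' ends, and the replicate signals were 576.1 (rank 166) and 1033 (rank 126). The nos-3 summit lay as well 184 bp upstream of Y53C12B.1, on the opposite strand (9742982 to 9746078), and so cannot be given to nos-3 alone. At nos-2 (WBGene00003784, chromosome II, 7065618 to 7067051, plus strand) the peak spanned 7065437 to 7065776, with a signal of 84.2, rank 2742 and percentile 15.7. The nos-2 summit was 11 bp upstream of the 5' end. Its score was 985, it was absent from the conservative list, and only replicate 2 had it in a thresholded list, with a signal of 54.0 (score 952, rank 2419 of 2733). Replicate 1 held it without the threshold alone, with a signal of 28.3 and a score of 54, at rank 7080 of 33529. The whole of nos-2 lies inside him-14, which encodes a meiotic MutS homologue and runs on the opposite strand from 7065020 to 7069966. The nos-2 summit falls in an intron of him-14, 4359 bp from its 5' end and outside its promoter window.

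DAZ-1, the worm member of the Deleted in Azoospermia family, is an RNA-binding protein needed for oocyte meiosis. At daz-1 (WBGene00000935, chromosome II, 5456305 to 5458609, plus strand) the series peak spanned 5455984 to 5456192, with a signal of 302.1, rank 1015, percentile 68.8 and its summit 221 bp upstream. The replicate signals were 142.9 (rank 925) and 165.9 (rank 1066). Of the 6 genes found in both thresholded replicate lists, daz-1 had the smallest ratio of replicate 2 to replicate 1, at 1.16.

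LIN-41 is a TRIM-NHL protein that represses mRNAs in growing oocytes and is also a target of the let-7 microRNA in the timing of larval development. At lin-41 (WBGene00003026, chromosome I, 9334800 to 9342496, minus strand) the series peak spanned 9342667 to 9342883, with a signal of 322.7, rank 970 and percentile 70.2, the median of the 9 members. Its summit was 276 bp upstream of the nearer of 2 transcript 5' ends. The replicate signals were 127.2 (rank 1010) and 193.7 (rank 945), with summits 12 bp apart. The values of lin-41 and daz-1 were close in the series list, 322.7 and 302.1, and their order was reversed in replicate 1.

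Of the genes for the cytoplasmic polyadenylation element binding (CPEB) proteins CPB-1 and CPB-3, cpb-1 had no thresholded summit. The cpb-3 summit was the weakest of the 9 in the series list apart from that of nos-2. CPB-3 is the closest worm relative of vertebrate CPEB1, and CPB-1 is needed for spermatogenesis. At cpb-3 (WBGene00000772, chromosome I, 5788634 to 5791752, minus strand) the series peak spanned 5791830 to 5792169, with a signal of 86.4, score 967, rank 2696, percentile 17.1 and its summit 248 bp upstream. Replicate 1 had it just above the threshold, with a signal of 44.4 and a score of 835, at rank 2126 of 2219. Replicate 2 had it in the unthresholded list alone, with a signal of 42.9 and a score of 364, at rank 3391 of 30974. The conservative list kept the cpb-3 peak, there with a score of 1000. At cpb-1 (WBGene00000770, chromosome III, 9322310 to 9324913, plus strand) no thresholded list had a summit. The unthresholded series list held 1 entry in the gene, with a signal of 22.7 and a score of 21, in the 3' UTR 2106 bp from the 5' end. Replicate 1 held 2 unthresholded entries in cpb-1, with signals of 23.2 in a coding exon and 21.3 in the 3' UTR, and replicate 2 held 1, with a signal of 14.4 in the 3' UTR. None of these entries lay upstream of cpb-1. An entry in the unthresholded series list is common, found for all 10 members and for 62.5% of all protein-coding genes. Likewise, all 10 had an entry in both unthresholded replicate lists, beside 47.4% of all genes. At 9 of them, all but cpb-1, entries of the replicates overlapped. The share of all genes with overlapping entries was not counted, so this 9 has no background.

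The Notch receptor gene glp-1 was in the series and conservative lists but in neither replicate's own thresholded list. At glp-1 (WBGene00001609, chromosome III, 9092241 to 9099698, plus strand) the series peak spanned 9091421 to 9091760, with a signal of 133.0, score 1000, rank 1917 and percentile 41.0. Its summit was 650 bp upstream, the farthest of the members. The unthresholded lists had it in replicate 1 with a signal of 43.4 and a score of 376 (rank 2905 of 33529), and in replicate 2 with a signal of 85.8 and a score of 119 (rank 1783 of 30974). The summits of the replicates were 70 bp apart, the widest gap in the set. Of all 3250 series peaks, 482 or 14.8% were in neither thresholded replicate list, with a median signal of 79.6, and the glp-1 peak was 1 of only 4 of these with a signal at or above its own.

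**Figure D2:**
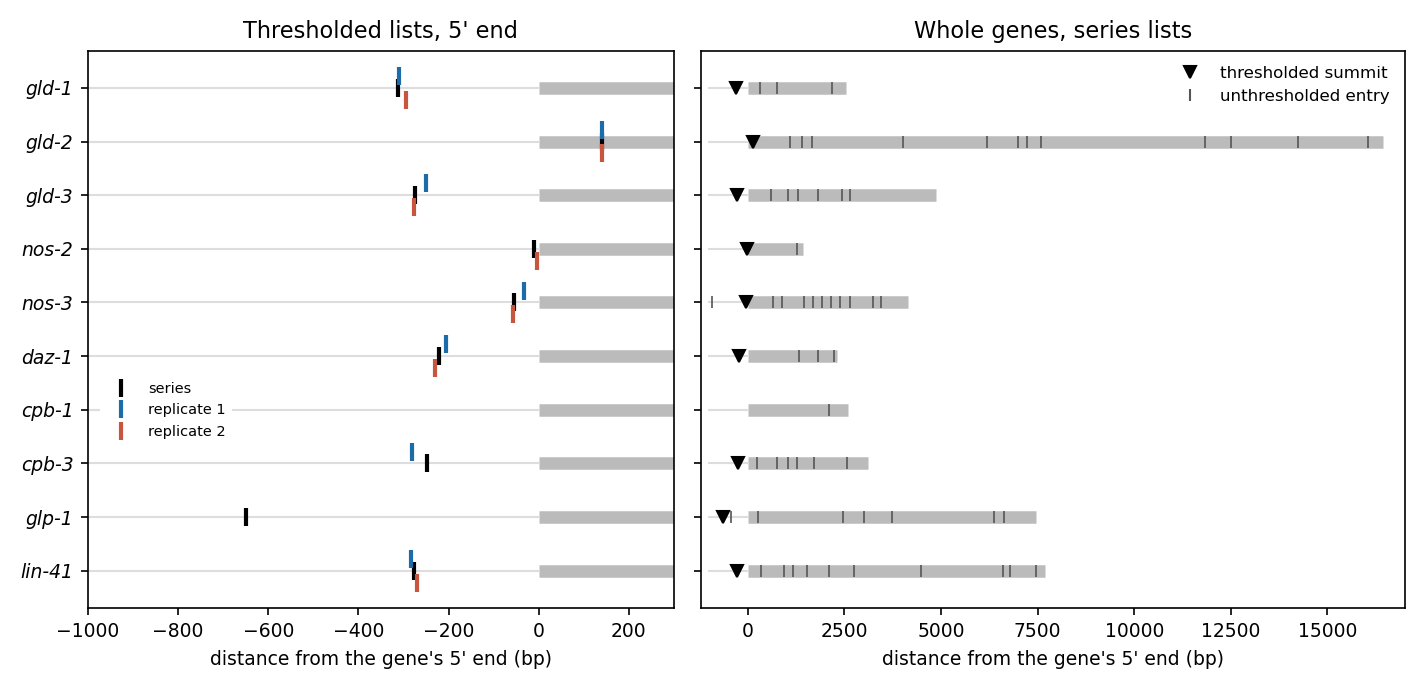
Summit positions at the 10 genes, in bp from the 5' end of the gene record (grey bars are genes). Left, summits of the 3 thresholded lists from 1000 bp upstream; right, whole genes with the thresholded series summit (triangle) and all entries of the unthresholded series list (short lines). The only triangle inside a gene is that of gld-2, and cpb-1 has none.

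The position of binding was alike in that each of the 9 genes had exactly 1 series summit, and that this summit lay in its own promoter window. Among the 2947 protein-coding genes with a summit in the wider window, 82.8% had exactly 1 and 84.8% had their strongest in their own promoter window. All 9 summits lay upstream of the nearest transcript 5' end, at a median of 248 bp, from 650 bp at glp-1 to 11 bp at nos-2. The gld-2 summit is among them, although it was 140 bp past the start of the gene record. Over the 2547 genes with a promoter summit the median distance was 243 bp upstream (quartiles 431 and 130 bp), a difference of a few bp from the members. Most of those genes thus had an upstream summit too, though their exact share was not counted. At 2 of the 9, gld-3 and nos-3, the summit also lay in the promoter window of a neighbour, beside 49.8% of the genes with a summit. Beyond these summits the second strongest entry in the series list without a threshold had a signal between 19.1 at nos-2 and 59.6 at nos-3. It was far below the promoter summit at gld-1, 40.0 beside 819.6, and closer to it at glp-1, 50.3 beside 133.0, and at cpb-3, 39.2 beside 86.4.

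The strength of binding spanned most of the series list. The percentiles of the 9 members ran from 15.7 to 95.6 with a median of 70.2, beside a median of 66.9 (quartiles 41.4 and 84.3) over all genes with a promoter summit. A median of 66.9 places most genes with a promoter summit among the stronger 1625 peaks of the series list, though their share was not counted. Of the 9 member summits, 6 were among these stronger peaks. The 3 others, at glp-1, cpb-3 and nos-2, were all 340 bp wide, the width shared by 85.8% of the weaker 1625 peaks and by 2.77% of the stronger 1625. Ranked among the 2547 genes by promoter summit, nos-3 stood at 207, gld-2 at 356, gld-3 at 537 and gld-1 at 539. The peak just above nos-3 was nearest to unc-85, a histone chaperone of the Asf1 family (signal 1607), and the one just below was nearest to cdc-48.1, an AAA ATPase (signal 1600.0). Those on either side of gld-2 were nearest to eif-3.C, a subunit of a translation initiation factor (signal 1143), and rbr-2, a histone demethylase (signal 1132). The peak just above gld-3 was nearest to Y54F10AR.1 (signal 821.9), and the one just below was that of gld-1.

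**Figure D3:**
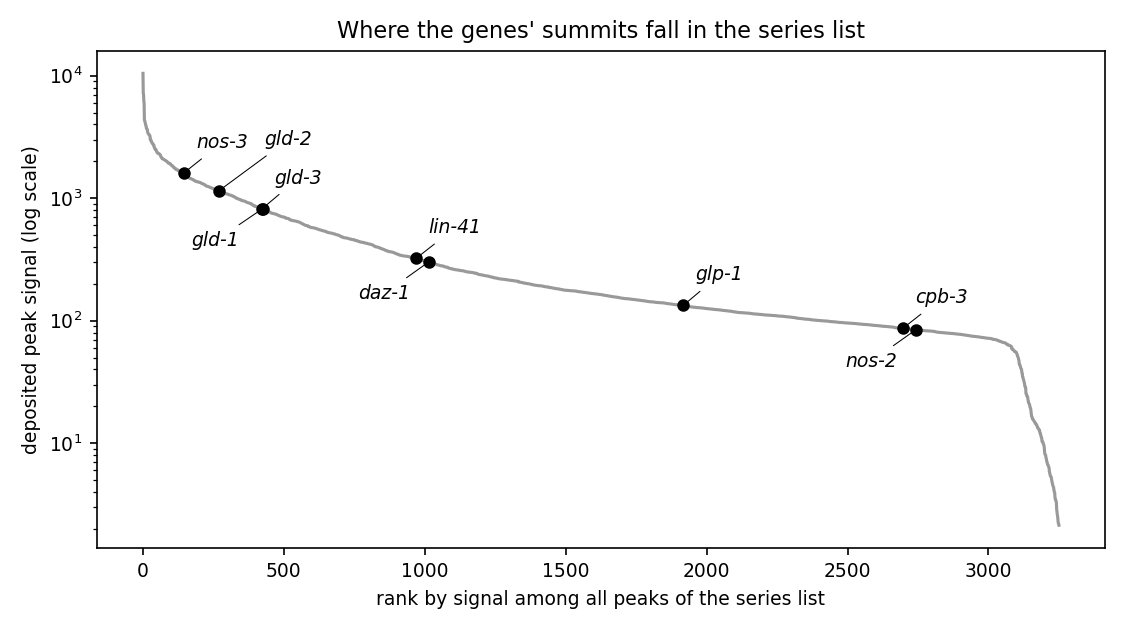
Deposited peak signal (log scale) against rank for all 3250 peaks of the series list (grey line), with the 9 members that had a summit as points. The points of nos-3, gld-2, gld-3 and gld-1 stand between ranks 145 and 425, and cpb-3 and nos-2 stand at 2696 and 2742.

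In both thresholded replicate lists nos-3 was the strongest of the members and gld-2 the next. gld-1 stood above gld-3 in replicate 1 and below it in replicate 2, and daz-1 stood above lin-41 in replicate 1 and below it in replicate 2. The signal was higher in replicate 2 at all 6 genes found in both, with ratios from 1.16 at daz-1 to 1.84 at gld-3 and a median of 1.55. Over the 1954 series peaks found in both replicates the median ratio was 1.42 (quartiles 1.18 and 1.65), so a higher value in replicate 2 was common to most peaks. With the unthresholded lists, all 9 genes could be compared, and the median was 1.59. Only cpb-3 was lower in replicate 2, at 0.967 times the signal of replicate 1. The scale between lists is not stated, so these ratios compare deposited values and not strength of binding. No median ratio over all series peaks was taken from the unthresholded lists. Replicate summits of the 6 genes were 1 to 26 bp apart with a median of 20.5 bp, beside a median of 11 bp (quartiles 4 and 24) over all 1954. By recurrence, 6 of the 9 peaks were in both thresholded replicate lists, 2 in 1 of them and 1 in neither, beside 60.1%, 25.05% and 14.8% of all series peaks.

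**Figure D4:**
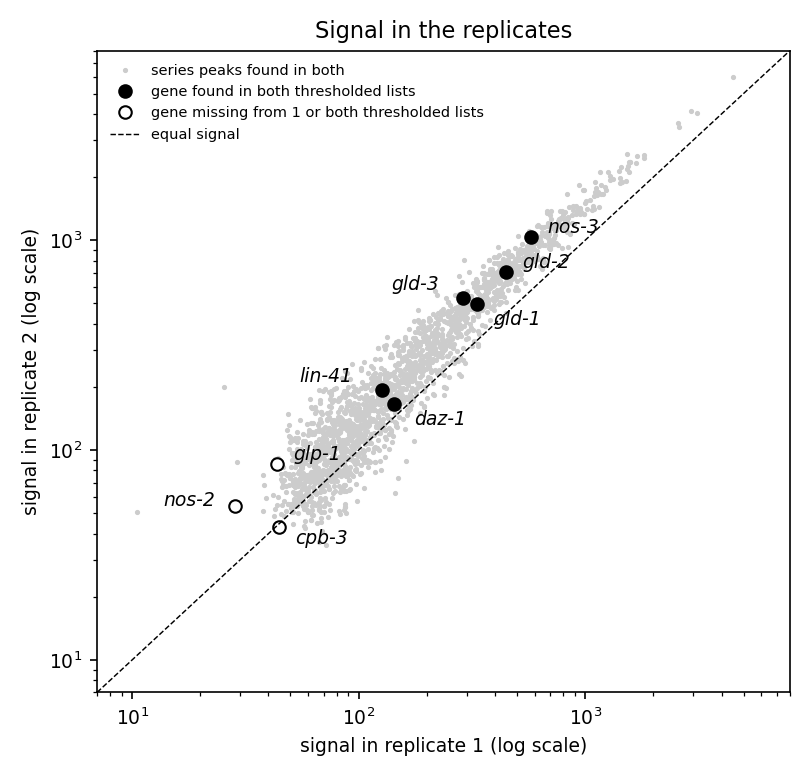
Signal in replicate 2 against replicate 1, both on log scales, for the 1954 series peaks found in both (grey) and the 9 members (black, open where a thresholded replicate list lacks the gene). The dashed line marks equal signal, and all members but cpb-3 lie above it.

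In the printed runs and their counterparts at the other genes, GCGC lay within 50 bp of the summit at 8 of the 9 members, all but cpb-3. Of all 3250 summits 53.1% had it in the same window, against 11.8% and 12% of windows of the same size centred 300 bp to the right and to the left, where 1 of the 9 members had it on each side. Among all peaks the word was found at 67.4% of the stronger 1625 summits and at 38.8% of the weaker 1625, and 6 of the members belong to the stronger ones. At glp-1 the word covers the summit base, at nos-2 the nearest bases of its copies lay 7 and 5 bp to the left of the summit on the plus strand, and at gld-3 they lay 8 bp to the left and 42 bp to the right. The longer word TACGGTA, counted on both strands, lay within 50 bp of the summit at 4 of the 9, gld-1, gld-2, daz-1 and lin-41, beside 10.6% of all summits and 1.51% and 1.35% of the windows to the right and to the left. Of the 9 members, 1 had it in the window to the right and 0 in that to the left. The copy at glp-1 begins more than 50 bp before the summit and was not counted. At cpb-1, which had no summit, the 1000 bp upstream held GCGC at 1 place, as did 61.2% of all genes at least once, and TACGGTA at 0, beside 12.6% of genes with a match. Both words were picked after reading these sequences, so the counts describe them and carry no test.

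Of 12 further words, counted on both strands within 100 bp of the summit, none was held by all 9 members. GAGA was present at 7, beside 86.7% of all summits. GTCTC, whose reverse complement contains GAGA, was present at 5, gld-1, gld-2, nos-2, nos-3 and lin-41, beside 48.6%. TTTCAG was present at 4, gld-2, gld-3, daz-1 and lin-41, beside 26.6%. TTTGAA was present at daz-1 and cpb-3, beside 44.3% of all summits. TATAAA was present at cpb-3 alone among the members, beside 13.7%, and TGCGCA, which contains GCGC, at gld-2 alone, beside 5.14%. The other 6 words were present at 0 of the 9. Among all summits, CGCGAA was held by 17.97%, the word GCGCGA by 12.6%, and CCCGCC by 12.1%. For CACGTG the share was 4.12%, for TGATAA it was 10.4%, and for CTCCGCC it was 3.32%. The G and C content within 100 bp of the summits ran from 26.9% at cpb-3 to 47.8% at gld-2, with a median of 34.8% beside 39.3% over all summits.

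Genes related to the 10 were counted in 4 lists, of their partners, target mRNAs of members or partners, their relatives by protein family and the sex determination pathway. Over all protein-coding genes, 12.8% had a promoter summit in the series list and 9.36% had one in both replicates. Among 14 partners of the members in the germ line, 8 had a promoter summit in the series list, and 7 had one in both replicates. The strongest was at rnp-8, an RNA-binding partner of GLD-2 (signal 1952, rank 89), followed by oma-1 (signal 1557, rank 151), car-1 (signal 1371, rank 189) and oma-2 (signal 783.8, rank 440). OMA-1 and OMA-2 are zinc finger proteins of oocyte maturation, and CAR-1 is a component of germ granules. The car-1 summit also lay in the promoter window of coa-5, and the weaker puf-8 summit lay in that of C30G12.1. FBF-1 and FBF-2, the Pumilio-family proteins that keep stem cells from entering meiosis, were among the 6 partners with no promoter summit at their genes. Of 14 genes listed for mRNAs that the members or their partners repress or activate, 10 had a promoter summit, 8 of them in both replicates. The strongest were rme-2, the yolk receptor (signal 1926, rank 93), cye-1, cyclin E (signal 995.6, rank 334), syp-2, a protein of the synaptonemal complex (signal 944.1, rank 361), and mex-3, a KH-domain protein (signal 916.9, rank 373). The cye-1 summit was shared with pqn-21, and that of syp-2 with C24G6.8 and cox-16. Weaker summits were shared too, at spn-4 (with spe-39), him-3 (with pgl-1), htp-1 (with ZK616.5) and syp-3 (with F39H2.3). None of these shared summits can be given to the target alone. The 4 genes without a promoter summit were tra-2, mes-3, pal-1 and fem-3.

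Relatives of the members by protein family had a promoter summit at 3 of 9 genes, 2 of them with one in both replicates. They were fog-1, a CPEB protein (signal 522.9, rank 661), nhl-2, an NHL-domain protein whose summit was shared with tag-340 (signal 462.0, rank 739), and nos-1, the remaining Nanos gene (signal 96.7, rank 2472). The nos-1 peak was in neither replicate's thresholded list. lin-12, the Notch receptor related to glp-1, and gld-4, the poly(A) polymerase related to gld-2, had none. Of 14 genes of sex determination, 2 had a promoter summit, beside the 12.8% of all genes. They were tra-1, the terminal transcription factor of that pathway (signal 528.6, rank 653), and fog-1, and fem-1 had one in replicate 2 alone. The 4 lists hold 47 distinct genes, of which 22 had a promoter summit.

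**Figure D5:**
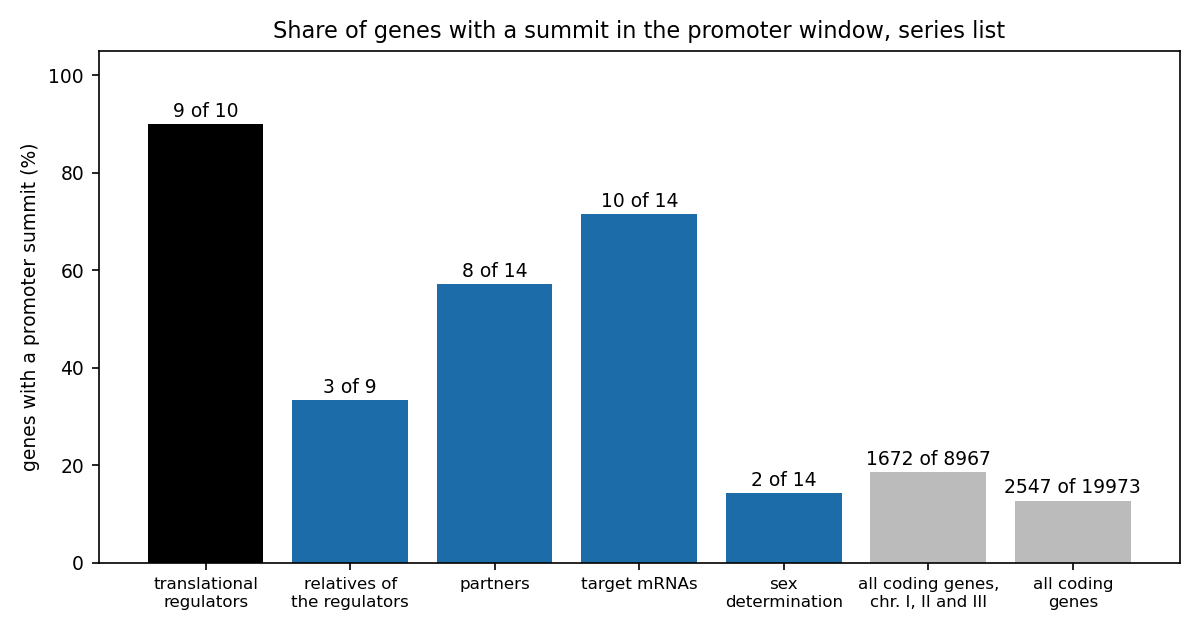
Percentage of genes with a promoter summit in the series list for the 10 members, the 4 companion lists, the protein-coding genes of chromosomes I, II and III and all protein-coding genes, with the counts printed above the bars. The members reach 9 of 10, and sex determination genes, at 2 of 14, stand close to the background.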

How the data were processed

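ChIP-seq peak lists of 2 biological replicates were used as deposited, on build ce11 per the labels. Per the labels, chromatin was sonicated to fragments of 200 to 800 bp. The authors' lists give each peak a signal and a score, both as deposited, and a summit. Notes deposited with the lists say that replicate lists derive from that replicate's alignments and series lists from both. Which aligner was used, and which caller made the peaks, is not given in the sources used here. Columns of unstated content were not used.

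Ensembl 115 gave genes and 5' ends, and the RefSeq genome of WBcel235 gave sequence. No chromosome length was exceeded by a peak, and the coding starts of all 10 genes read ATG. A check with planted summits covered only the promoter window and the distance at the 5' end of the gene record. The whole-gene window, other transcript 5' ends and neighbours were not checked in that way. Replicate peaks matched when they overlapped by at least 1 bp, whereas a gene was counted in both replicates when each list had a summit in its window. No test was made, since there is 1 group, and the members and lists were chosen with earlier results of these data known. Besides the members, genes were named when a member's strongest summit lay in their promoter window or body, when they were up to 4 strongest of a companion list, when they were among 4 or fewer without a summit, or when they ranked next to the 3 strongest members. Other genes of those lists, namely FBF-1, FBF-2, lin-12, gld-4, fem-1, puf-8, spn-4, him-3, htp-1 and syp-3, were named after their values were seen. Genes in whose promoter window the summit of a named companion lay were named as well. Alternatives were the conservative list, each replicate alone, the stronger 50% of peaks, the unthresholded lists, merged overlapping peaks, other windows, the peak interval in place of the summit, and stricter matching of replicates. Tables were made in Python 3.11.15 (pandas 2.3.3, numpy 2.4.6) and plots with matplotlib 3.10.9.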

Additional observations from a re-analysis of the deposited data

How the results depend on the processing

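Counts of members with a summit (9), with a promoter summit (9) and with a shared summit (2) stayed within 1.5 times under the 9, 11 and 11 alternatives run. The count with a summit ranged from 6, in the stronger 50% of the series list, to 10, in the unthresholded list. nos-2 was lost in the conservative list and glp-1 with a window of 500 bp. The count in both replicates, 6, rose to 10 for any entry in both unthresholded replicate lists (47.4% of all genes) and was 6 under the 8 other alternatives. It was 9 where the entries had to overlap, a count added after seeing the data, with no share taken over all genes. The median percentile, 70.2, was 78.0 in the conservative list, 98.0 in the unthresholded list, 78.6 with 500 bp upstream, and 78.7 to 84.6 with 1 replicate left out. These settings hold different members or more peaks. The median distance, 248 bp upstream (-248), was -234.5 in the unthresholded list and with 500 bp upstream, and -250 to -231 with 1 replicate left out. After seeing the data, the background of chromosomes I, II and III alone (18.6%) and the replicate ratio from unthresholded lists (1.59 against 1.55) were added. With 2 replicates, unknown depth and a control library not analysed here, a missing summit, as at cpb-1, does not show that binding is absent.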
